A study of Mus musculus with 18 samples.

Results

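Spontaneous mammary gland tumors of mice were ranked by the RNA level of Mki67, and the 5 epithelial tumors with the most Mki67 RNA were compared with the 5 with the least. A tumor counted as epithelial if Epcam, the gene of the epithelial adhesion molecule EpCAM, reached 180 CPM (a gene's expected read count relative to the tumor's total count), which held for 13 of 18 tumors. The groups were chosen on these measured values, so the levels of Mki67 and Epcam are described without a test. Each tumor was treated as coming from its own mouse. All carried the Cre transgene labelled MMTV-Cre(+), with the mouse mammary tumor virus promoter, which is active in mammary epithelium and some other tissues. All also carried 1 allele of Pik3ca with the activating change H1047R, spelled "Pikca" in the labels. The high group held 3 tumors labelled Cbfb(het) and 2 labelled Cbfb(wt), and the low group 4 labelled Cbfb(het) and 1 labelled Cbfb(homo). Among the high tumors the labels were thus Cbfb(wt) 3, Cbfb(het) 13, Cbfb(het) 6, Cbfb(wt) 1 and Cbfb(het) 7, and among the low tumors Cbfb(het) 4, Cbfb(het) 5, Cbfb(het) 9, Cbfb(het) 8 and Cbfb(homo) 1. No Cbfb(wt) tumor was in the low group and the only Cbfb(homo) tumor of the series was in it, so group and label cannot be told apart beyond the Cbfb(het) tumors. The labels give neither age, sex, litter nor batch, the animals had no treatment, and all RNA was from whole tumors.

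Mki67 (ENSMUSG00000031004.8, chr7:135689784-135716361 on GRCm38, minus strand) encodes Ki-67, a large nuclear protein that coats mitotic chromosomes and is absent from resting cells. Pathologists therefore count Ki-67-positive nuclei as a measure of proliferation in breast tumors. The RNA of Mki67 is made late in the cycle. Genes of the late phases, such as cyclin B, Cdk1 and the kinesins of the spindle, share promoter elements: CCAAT boxes bound by the NF-Y factor, and a cell cycle homology region (CHR) through which the DREAM complex represses them in resting cells and the B-MYB and FOXM1 complexes activate them before mitosis. The G1/S genes, such as the Mcm helicase subunits and cyclin E, are driven by E2F factors instead. A tumor with a larger share of cycling cells is thus usually expected to hold more RNA of all these genes together.

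The promoters of 4 late genes are shown as background: Mki67 itself, and 3 genes with the same promoter letters but transcripts of different length. Whether promoter letters relate to the differences between the groups was not tested. Each window runs from 250 bases before to 50 bases after the start that RefSeq gives on GRCm38.p6, 5′ to 3′ on the gene's strand. Capitals mark matches to a pair of motifs on either strand. The CHR motif is spelled TTTGAA on the gene's own strand. Found on the opposite strand, it appears here as TTCAAA. The box of NF-Y is spelled CCAAT on the gene's own strand. Found on the opposite strand, that box appears here as ATTGG, and matches can overlap. The windows are chr7:135716330-135716629, minus strand, for Mki67; chr1:189688037-189688336, minus strand, for Cenpf; chr10:69352863-69353162, minus strand, for Cdk1; and chr2:164769679-164769978, plus strand, for Ube2c.
Mki67: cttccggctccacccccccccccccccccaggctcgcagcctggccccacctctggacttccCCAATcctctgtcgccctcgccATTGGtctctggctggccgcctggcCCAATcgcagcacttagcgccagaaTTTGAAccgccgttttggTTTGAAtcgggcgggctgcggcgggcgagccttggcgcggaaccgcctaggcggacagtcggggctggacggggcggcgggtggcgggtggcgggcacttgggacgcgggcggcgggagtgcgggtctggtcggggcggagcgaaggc
Cenpf: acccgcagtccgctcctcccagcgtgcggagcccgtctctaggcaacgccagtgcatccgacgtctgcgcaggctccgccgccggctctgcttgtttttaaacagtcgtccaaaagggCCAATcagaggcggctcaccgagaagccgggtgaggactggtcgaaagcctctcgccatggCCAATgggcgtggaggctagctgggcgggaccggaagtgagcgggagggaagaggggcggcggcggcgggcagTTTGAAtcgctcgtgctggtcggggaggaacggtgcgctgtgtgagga
Cdk1: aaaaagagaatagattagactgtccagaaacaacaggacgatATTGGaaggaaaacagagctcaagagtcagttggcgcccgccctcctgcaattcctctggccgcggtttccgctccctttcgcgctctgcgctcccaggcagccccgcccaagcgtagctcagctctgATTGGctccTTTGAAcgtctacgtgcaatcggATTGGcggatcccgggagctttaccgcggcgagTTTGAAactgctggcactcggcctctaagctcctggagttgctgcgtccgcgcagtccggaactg
Ube2c: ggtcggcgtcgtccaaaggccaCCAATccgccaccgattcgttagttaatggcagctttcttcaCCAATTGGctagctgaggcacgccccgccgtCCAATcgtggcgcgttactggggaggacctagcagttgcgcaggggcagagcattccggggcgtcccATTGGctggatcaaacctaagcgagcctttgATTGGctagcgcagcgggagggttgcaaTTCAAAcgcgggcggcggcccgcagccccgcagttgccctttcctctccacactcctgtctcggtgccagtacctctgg
Both kinds of letters were found in 7.12% of all 27025 promoter windows, where the CHR letters alone occurred in 18.1% and CCAAT in 37.9%. Of the regulators of G2 and mitosis, 14 of 26 with a window held both, and of the spindle, cytokinesis and condensation genes 20 of 33. Of the earlier phases, 2 of 19 G1/S genes and 3 of 26 DNA synthesis genes did. Among late genes, 6 of 16 with a transcript under 1500 bases and 7 of 11 with one over 4000 bases held both. A match is a run of letters and not a measured site.

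The levels of Mki67 and Epcam that the rule used are given here in plain CPM, without TMM scaling. Mki67 stood at 228 CPM in Cbfb(wt) 3, 171 in Cbfb(het) 13, 169 in Cbfb(het) 6, 159 in Cbfb(wt) 1 and 156 in Cbfb(het) 7. In the low group it stood at 101 CPM in Cbfb(het) 4, 96.1 in Cbfb(het) 5, 90.7 in Cbfb(het) 9, 80.4 in Cbfb(het) 8 and 68.3 in Cbfb(homo) 1. The group means were 176 ± 29.6 and 87.2 ± 12.99 CPM (SD, n = 5 each), a ratio of 2.02. Between the groups lay Cbfb(het) 2 at 137, Cbfb(het) 3 at 133 and Cbfb(het) 11 at 109 CPM, so the tumors just outside the 2 cuts were 156 against 137 and 109 against 101. The ranking has no wide gap, and the tumor with the most Mki67 stands apart from the next. With TMM scaling the cuts did not hold. Cbfb(het) 2, at 154 CPM, then lay above Cbfb(wt) 1 of the high group, at 148. Cbfb(het) 11, at 97.4 CPM, lay below Cbfb(het) 4 and Cbfb(het) 8 of the low group, at 113 and 102. On the per-length scale Mki67 was at 21.0 TPM or more in the high group, at 16.1 to 16.5 TPM between the groups and at 13.2 TPM or less in the low group. Epcam was at 344 CPM in the tumor just inside its threshold, Cbfb(homo) 1, and at 120 CPM in the tumor just outside, Cbfb(het) 12. Within the groups Epcam was at 642 ± 18.4 CPM in high and 584 ± 150 CPM in low tumors.

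The label of these groups is proliferation, and it was checked against 151 other cell cycle genes from 5 lists. Their median log2 fold change, high over low, was 0.37, and 139 of them lay above 0. Over all 16661 genes the median was -0.07. The mean level of the 151 genes was 4.68 log2 CPM in Cbfb(wt) 3, 4.39 in Cbfb(het) 13, 4.78 in Cbfb(het) 6, 4.62 in Cbfb(wt) 1 and 4.97 in Cbfb(het) 7. In the low group it was 4.57 in Cbfb(het) 4, 4.29 in Cbfb(het) 5, 4.36 in Cbfb(het) 9, 4.60 in Cbfb(het) 8 and 3.65 in Cbfb(homo) 1. The groups overlapped: Cbfb(het) 13 of the high group lay below 2 low tumors. Cbfb(homo) 1 was the lowest tumor by a wide margin. The groups are therefore named here by what chose them, high-Mki67 and low-Mki67.

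**Figure D1:**
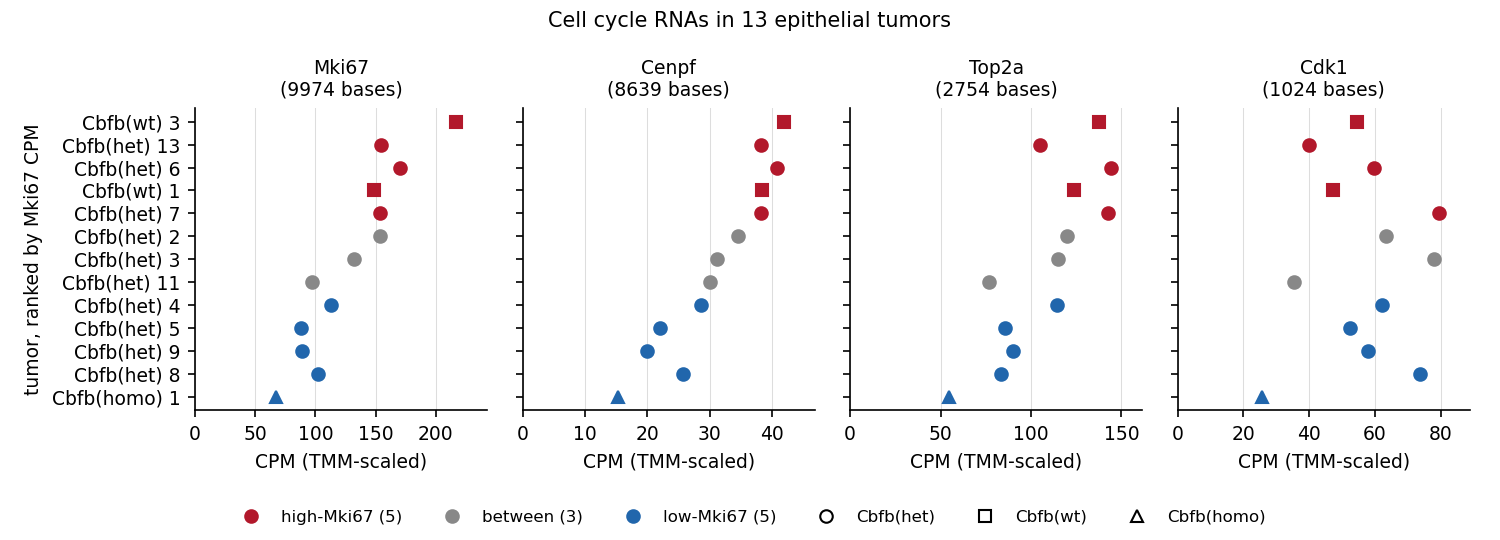
Level of Mki67 and 3 other cell cycle RNAs in the 13 epithelial tumors, in CPM scaled with TMM factors (horizontal axes, each from 0), with 1 point per tumor, tumors ordered by plain Mki67 CPM from top to bottom, color for the group and shape for the Cbfb label. Cenpf, with a long transcript, separates the groups (38.2 or more against 28.7 or less), Top2a nearly does, and Cdk1, with a short one, does not (39.9 to 79.4 against 25.7 to 73.9).

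The libraries of both groups were alike in depth. The 18 tumors had 33210207 to 40974130 rounded expected counts. Total counts, genes detected, the share of mitochondrially encoded mRNA, the share of milk protein RNA and the share of the 20 most counted genes did not differ past the threshold between groups (two-sided exact permutation test over 252 splits, adjusted p from 0.939 to 0.984 over 5 measures, where the smallest possible p is 0.00794). Milk protein genes took 0.425% to 7.93% of the counts in high and 0.263% to 15.3% in low tumors. Cbfb(het) 10 and Cbfb(het) 14, whose libraries were almost alike (Pearson r of 0.998 across genes), both had Epcam under 180 CPM and were in neither group.

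No gene passed the adjusted threshold between the groups. The quasi-likelihood test of edgeR called 0% of 16661 genes at a Benjamini-Hochberg threshold of 0.05, and the smallest adjusted p was 0.104. At an unadjusted p under 0.05, 1393 genes (8.36%) were higher in high-Mki67 tumors and 2117 (12.7%) were lower, where evenly spread p-values would give 833 in all. In 369 genes (2.21%) all 5 high tumors lay above all 5 low tumors, and in 361 (2.17%) all lay below. The count of calls depended on the tool: DESeq2 called 555 higher and 803 lower, limma-voom 0 and 0, and limma on log2(TPM + 1) 300 and 2. On the TPM scale the median over all genes was 0.22 instead of -0.07, and 3853 genes were higher and 321 lower at an unadjusted p under 0.05. Without Cbfb(het) 8 edgeR called 20 genes higher and 108 lower, and without Cbfb(homo) 1 it called 2 and 1. A count of list members at an unadjusted p is therefore to be read against 8.36% for higher and 12.7% for lower genes.

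The differences between the groups followed transcript length. Among the 10689 genes with a mean log2 CPM of 3 or more, the median log2 fold change was -0.32 for transcripts under 1500 bases, -0.10 for 1500 to 2500 bases, 0.09 for 2500 to 4000 bases and 0.30 for transcripts over 4000 bases. Of the shortest class 11.8% were positive, and of the longest 79.6%. Across genes the log2 fold change and length had a Spearman rho of 0.55 and a Pearson r of 0.46, a description over genes that are not independent. The same quantity can be read in each tumor as a length index, made from log2 deviations of genes from their 13-tumor mean. It is the median deviation of the 2138 genes with the longest transcripts (above 4272 bases) minus that of the 2138 with the shortest (below 1495 bases). The index was 0.36 in Cbfb(wt) 3, 0.55 in Cbfb(het) 13, 0.50 in Cbfb(het) 6, 0.31 in Cbfb(wt) 1 and -0.03 in Cbfb(het) 7. In the low group it was 0.22 in Cbfb(het) 4, -0.60 in Cbfb(het) 5, -0.62 in Cbfb(het) 9, -0.71 in Cbfb(het) 8 and 0.26 in Cbfb(homo) 1. Most high tumors thus held relatively more long RNA and 3 low tumors relatively more short RNA, with Cbfb(het) 7, Cbfb(het) 4 and Cbfb(homo) 1 going the other way or lying near 0. The means were 0.34 ± 0.23 and -0.29 ± 0.48 (SD, n = 5 each, two-sided exact permutation p = 0.0476, adjusted p = 0.0952 over 2 measures). The fragment length that the deposited effective lengths imply was 217 ± 11.03 bases in high and 221 ± 11.3 in low tumors (two-sided exact permutation p = 0.556, adjusted p = 0.556 over the same 2 measures). Mki67, at 9974 bases, has one of the longest transcripts of the cell cycle genes, so the ranking by its CPM and the length index share this property. The rule can thus feed the index, which the permutation p for the index does not take into account. Over the 13 epithelial tumors the index and the log2 CPM of Mki67 had a Pearson r of 0.38 and a Spearman rho of 0.53. The part of the length trend in the results below was not tested. Each list is therefore also given after the trend of every tumor on log2 transcript length was taken out, an alternative chosen after the trend had been seen. In that fit 4.82% of all genes were higher and 10.4% lower at an unadjusted p under 0.05.

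**Figure D2:**
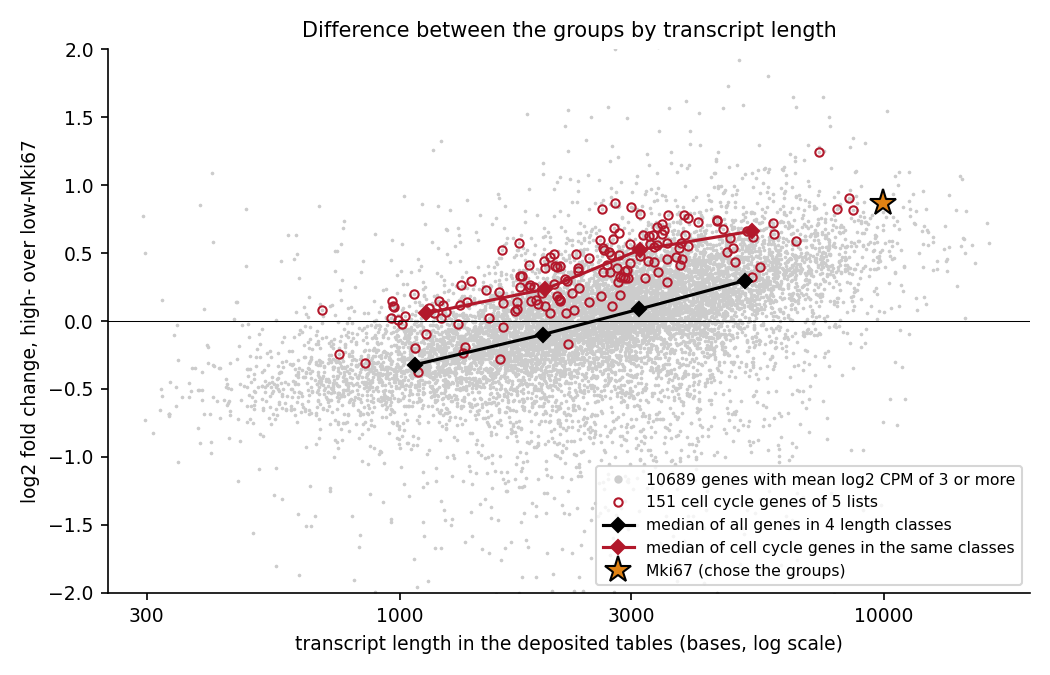
Log2 fold change, high- over low-Mki67 tumors (vertical axis), against transcript length in bases (horizontal log axis), for 10689 genes (grey points, 55 of which lie beyond the axis limit of 2) and 151 cell cycle genes (red circles), with diamonds for the medians of 4 length classes. Both medians are higher for longer transcripts, and those of the cell cycle genes lie above those of all genes in every class, by 0.33 to 0.44.

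Cell cycle genes followed the length trend too, from a higher base. Their median log2 fold change was 0.06 (-0.04 without Cbfb(het) 7) in 27 genes under 1500 bases, 0.23 in 48 genes of 1500 to 2500 bases, 0.52 in 57 genes of 2500 to 4000 bases and 0.66 in 19 genes over 4000 bases. Positive values were found in 18 of 27, 45 of 48, 57 of 57 and 19 of 19 of them. Against all genes of the same length class the cell cycle median lay 0.38, 0.33, 0.44 and 0.36 higher. With the length trend taken out the 4 medians were 0.34, 0.33, 0.41 and 0.33, which is nearly flat, and 146 of the 151 genes were positive. Mki67 itself went from 0.87 to 0.30. These genes measure what the ranking chose, so their values are given without a test.

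The short cell cycle transcripts named here did not separate the groups. Cdk1, the kinase that starts mitosis, was at 54.5 CPM in Cbfb(wt) 3, 39.9 in Cbfb(het) 13, 59.6 in Cbfb(het) 6, 47.3 in Cbfb(wt) 1 and 79.4 in Cbfb(het) 7. In the low group Cdk1 was at 62.2 in Cbfb(het) 4, 52.5 in Cbfb(het) 5, 58.0 in Cbfb(het) 9, 73.9 in Cbfb(het) 8 and 25.7 in Cbfb(homo) 1. The groups overlapped over almost their whole range, and the second highest of these tumors, Cbfb(het) 8, was a low-Mki67 tumor. The log2 fold change of Cdk1 was 0.04 ± 0.27 (SE). Ube2c, which loads ubiquitin for the anaphase-promoting complex and has the same promoter letters as Mki67, stood at 0.11 ± 0.32. Birc5 (survivin of the chromosomal passenger complex) stood at -0.02 ± 0.29, the thymidine kinase gene Tk1 at -0.19 ± 0.22 and the securin gene Pttg1 at -0.25 ± 0.28. With the length trend taken out these 5 genes stood at 0.34, 0.46, 0.31, 0.01 and 0.16.

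Of the 19 cell cycle genes over 4000 bases, 5 had groups that did not overlap. The 2.21% of all genes covers every transcript length and is no baseline for long ones. Of all genes over 4000 bases with a mean log2 CPM of 3 or more, 79.6% lay above 0. A share without overlap for long genes alone is not given. Cell cycle genes also measure what the ranking chose. Of the 5, 4 are described here as kinetochore and spindle genes. Cenpf, a kinetochore protein of late G2, was at 41.9 CPM in Cbfb(wt) 3, 38.2 in Cbfb(het) 13, 40.8 in Cbfb(het) 6, 38.4 in Cbfb(wt) 1 and 38.2 in Cbfb(het) 7. In the low group Cenpf was at 28.7 in Cbfb(het) 4, 22.0 in Cbfb(het) 5, 20.01 in Cbfb(het) 9, 25.7 in Cbfb(het) 8 and 15.4 in Cbfb(homo) 1. All 5 high tumors lay above all 5 low tumors and close to each other. For Cenpf the log2 difference was 0.82 ± 0.16 (SE), which became 0.30 with the length trend taken out. Cenpe, the kinetochore motor, stood at 0.72 ± 0.13 (28.05 to 34.2 CPM against 16.3 to 24.4), and Aspm, a spindle pole protein, at 0.82 ± 0.18 (18.8 to 22.2 against 7.99 to 15.2). Knl1, the scaffold of the outer kinetochore, had the largest value of the cell cycle genes, 1.25 ± 0.27 (15.8 to 19.9 against 5.0 to 13.7). Without the length trend Cenpe stood at 0.36, Aspm at 0.33 and Knl1 at 0.83. Top2a, the topoisomerase that untangles sister chromatids, has a transcript of middle length (2754 bases). It was at 105 to 144 CPM in high and 54.6 to 114 CPM in low tumors, a log2 difference of 0.60 ± 0.18 (SE) that was 0.55 without the length trend.

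By phase, the list medians were as follows. The spindle, cytokinesis and condensation list had the highest, 0.58 over 37 genes, all of them positive, and 0.42 without the length trend. Its middle transcript length was 3250 bases. The G1/S and licensing list stood at 0.37 over 23 genes, all positive, with Mcm2, a helicase subunit, at 0.55 ± 0.21. The 33 G2/M regulators stood at 0.31 with 28 positive, the 27 centromere and kinetochore genes at 0.27 with 24 positive, and the 31 DNA synthesis genes at 0.20 with 27 positive. Once the length trend was taken out these 4 lists stood at 0.30, 0.34, 0.37 and 0.29, and the order of the phases was no longer the same. Genes whose groups did not overlap numbered 5 of 37, 0 of 23, 1 of 33, 4 of 27 and 1 of 31 in the 5 lists. Among all 151 they numbered 11, against 2.21% of all genes, a share that covers every transcript length. The 22 genes of homologous recombination and the Fanconi pathway, which repair broken forks in S phase, stood at 0.49, with 21 positive.

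**Figure D3:**
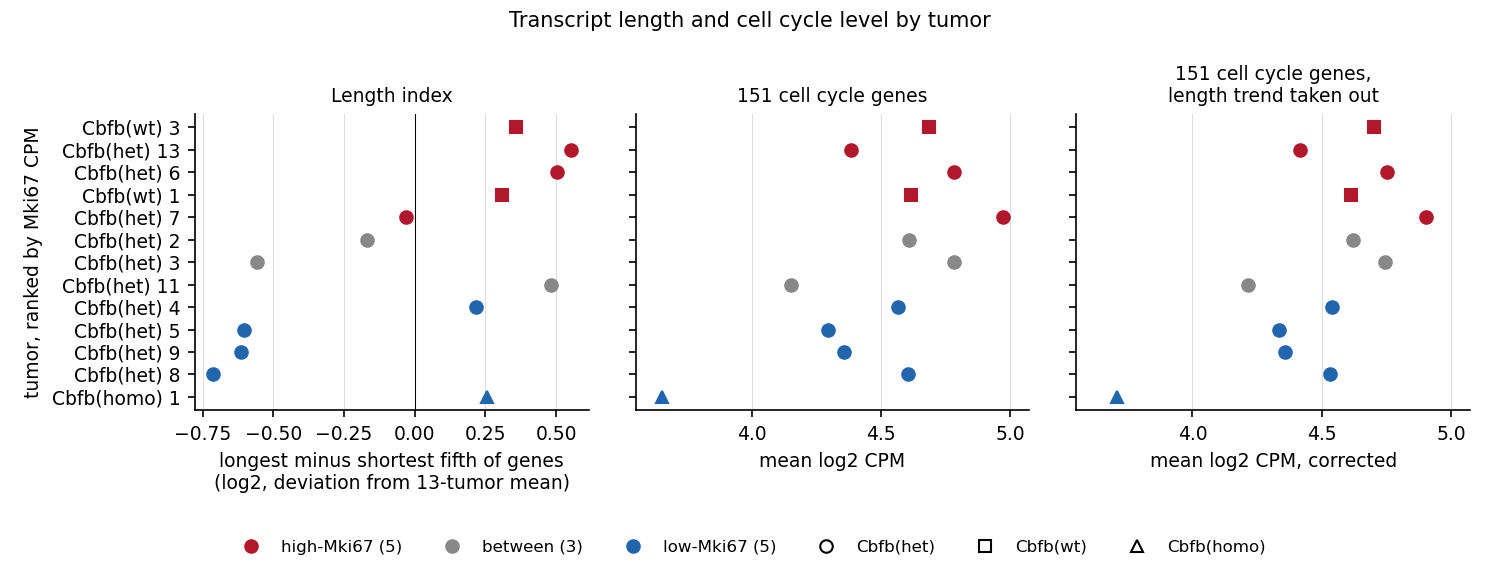
Length index (left, log2), mean log2 CPM of 151 cell cycle genes (middle) and the same mean after the length trend was taken out (right) in the 13 epithelial tumors, 1 point per tumor, ordered by plain Mki67 CPM from top to bottom, with color for the group and shape for the Cbfb label. The length index is above 0 in 4 of 5 high tumors and below 0 in 3 of 5 low tumors, and in both cell cycle panels the groups overlap.

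Which tumors count as proliferating depended on the gene used to rank them. Ranked by Top2a, 9 of the 10 tumors stayed in their group, and ranked by TMM-scaled Mki67 8 did. Ranked by the mean of the G2/M regulators, 5 did, and ranked by Mki67 with the length trend taken out also 5. In both of the last rankings Cbfb(het) 8 moved from the low to the high group and Cbfb(het) 13 from the high to the low group. Cbfb(het) 8 had a G2/M mean of 5.09 log2 CPM, above 4 of the 5 high-Mki67 tumors, and Cbfb(het) 13 one of 4.63. Ranked by the G2/M regulators, edgeR called 233 genes higher and 215 lower. That ranking is not an independent check of the Mki67 ranking, since it uses the same 13 libraries.

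The same genes were read in the tumors that the groups left out. In the 3 epithelial tumors between the groups and the 5 tumors under the Epcam threshold, counted as 7 libraries because 2 were almost alike, each gene was fitted on the log2 CPM of Mki67 with the Epcam class as a block. The slope is the log2 change of a gene over 0.8925 log2 units of Mki67, the difference between the high and low group means. The 2 almost alike libraries, Cbfb(het) 10 and Cbfb(het) 14, were averaged and had 61.5 and 58.4 plain CPM of Mki67. The other libraries of this fit lay at 108 to 145. With 4 residual degrees of freedom, that 1 averaged library can weigh heavily in every slope outside the groups. Of 17997 genes 0% passed the adjusted threshold (edgeR quasi-likelihood test), and 711 (3.95%) were positive and 1311 (7.28%) negative at an unadjusted p under 0.05. The median slope of all genes was 0.02. Of the 151 cell cycle genes 142 had a positive slope, with a median of 0.84, and 54 were positive at an unadjusted p under 0.05 and 0 negative. The median slope was 0.73 for the 27 short ones (26 positive) and 0.60 for the 19 longest (18 positive). The slope was 0.98 for the G2/M regulators, 0.96 for the spindle list and 0.49 for DNA synthesis. In these tumors Cdk1 had a slope of 1.41 and Top2a one of 1.45.

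Genes that hold cells in or out of the cycle showed no common direction. The 10 CDK inhibitors and pocket proteins had a median log2 fold change of 0.08 (-0.04 without Cbfb(het) 7), 6 of them positive. Cdkn1b (p27, an inhibitor of CDK2) was higher in all high tumors, 69.3 to 91.8 against 60.5 to 67.8 CPM, with a log2 fold change of 0.33 ± 0.11 (SE). Cdk6, a partner of the D-type cyclins, stood at 47.4 to 72.2 CPM in high and 19.2 to 35.7 CPM in low tumors. Its log2 fold change was 1.10 ± 0.18, with no overlap, and 0.46 without the length trend of its transcript of 10752 bases. Cdk4, the other partner, stood at -0.24 ± 0.14. Ccnd1, cyclin D1, stood at 0.47 ± 0.21 (213 to 412 against 190 to 326 CPM). In the tumors outside the groups the slope of Cdk6 was -0.65. The 22 p53 targets had a median of -0.25 with 3 positive, of -0.01 without Cbfb(homo) 1 and of 0.18 on the TPM scale. At an unadjusted p under 0.05, 1 of them was lower (12.7% of all genes). In 1 of them all high tumors lay below all low tumors (2.17% of all genes). Bax, the pro-apoptotic target, was lower in all high tumors (34.9 to 51.5 against 53.4 to 72.4 CPM, log2 fold change -0.59 ± 0.15, and -0.27 without the length trend).

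Genes of ribosome production and the ribosomal protein genes lay on opposite sides of 0. The 36 ribosome biogenesis genes had a median of 0.20 (0.24 without the length trend), and 28 of them lay above 0. At an unadjusted p under 0.05, 11 of them were higher (8.36% of all genes) and 0 lower, and in 5 the groups did not overlap (2.21% of all genes). Utp20, a component of the small-subunit processome, was at 72.5 CPM in Cbfb(wt) 3, 59.0 in Cbfb(het) 13, 62.4 in Cbfb(het) 6, 54.3 in Cbfb(wt) 1 and 57.8 in Cbfb(het) 7, and at 31.8 to 40.7 CPM in the 5 low tumors. Polr1b, a subunit of RNA polymerase I, stood at 0.65 ± 0.15 (SE), with 38.0 to 53.7 against 22.2 to 34.4 CPM. The 49 cytosolic ribosomal protein genes were all negative, with a median of -0.46, 13 of them lower at an unadjusted p under 0.05 (12.7% of all genes). Their transcripts are short, with a middle length of 709 bases, and without the length trend their median was -0.05 and 13 of 49 were positive. Their count at an unadjusted p under 0.05 ranged from 2 without Cbfb(het) 6 to 34 without Cbfb(homo) 1. The 52 nuclear genes of the respiratory chain stood at -0.40 and at -0.02 without the length trend, and the 47 mitochondrial ribosomal genes at -0.23 and 0.02 (0.10 on the TPM scale). Ranked by the G2/M regulators the ribosomal protein genes stood at 0.42 and the respiratory chain at 0.36, so their direction turned with the ranking. Outside the groups the median slopes were 0.09 and 0.19.

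Among epithelial genes, most adhesion genes had positive and most hormone-sensing genes negative values, with 0 genes past the adjusted threshold. The 20 adhesion genes had a median of 0.25 (14 above 0), and in 4 of them all high tumors lay above all low tumors (2.21% of all genes). Tjp1, the tight junction scaffold ZO-1, was at 110 to 245 CPM in high and 57.4 to 103 in low tumors (log2 fold change 1.13 ± 0.24, SE, and 0.78 without the length trend). Cdh1, E-cadherin, was at 636 to 765 against 423 to 519 CPM (0.53 ± 0.12, and 0.27). Krt19, a luminal keratin with a shorter transcript, was at 742 to 814 CPM in high and 995 to 1405 in low tumors (-0.60 ± 0.14, and -0.41). Ehf, an epithelial ETS factor of the luminal progenitor list, was at 642 to 910 against 203 to 449 CPM (1.06 ± 0.22, and 0.81). The whole list, Ehf included, had no common direction (19 genes, 11 positive, median 0.05, and -0.26 without Cbfb(wt) 3). Epcam itself, used by the rule in plain CPM, had a log2 fold change of -0.01 after TMM scaling.

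The 16 hormone-sensing luminal genes had a median log2 fold change of -1.21, with 2 positive and 8 lower at an unadjusted p under 0.05 (12.7% of all genes). Esr1, the estrogen receptor, stood at -1.04 ± 0.46 (SE), Pgr, the progesterone receptor, at -2.65 ± 1.07, and Prlr, the prolactin receptor, at -1.39 ± 0.56. Cited1, an estrogen receptor coactivator, was at 0.886 to 3.87 CPM in high tumors and at 0.831 to 176 in low tumors, so the groups overlapped. The mean of the list was 3.20 to 3.83 log2 CPM in high tumors, and 5.47 in Cbfb(het) 4, 4.77 in Cbfb(het) 5, 4.22 in Cbfb(het) 9, 2.80 in Cbfb(het) 8 and 5.40 in Cbfb(homo) 1. Thus 4 of the low tumors lay above all high tumors, and Cbfb(het) 8 below them all. Without the length trend the median was -1.48 with 9 lower, and without Cbfb(het) 4 the count was 3. Outside the groups the direction was the other one, with a median slope of 0.87 and 13 of 16 positive. The 20 basal and myoepithelial genes stood at -1.12, but at -0.18 without Cbfb(homo) 1, which held the highest mean of that list. The 14 milk protein genes stood at -0.84, with 0 genes at an unadjusted p under 0.05, and ranged widely in both groups.

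**Figure D4:**
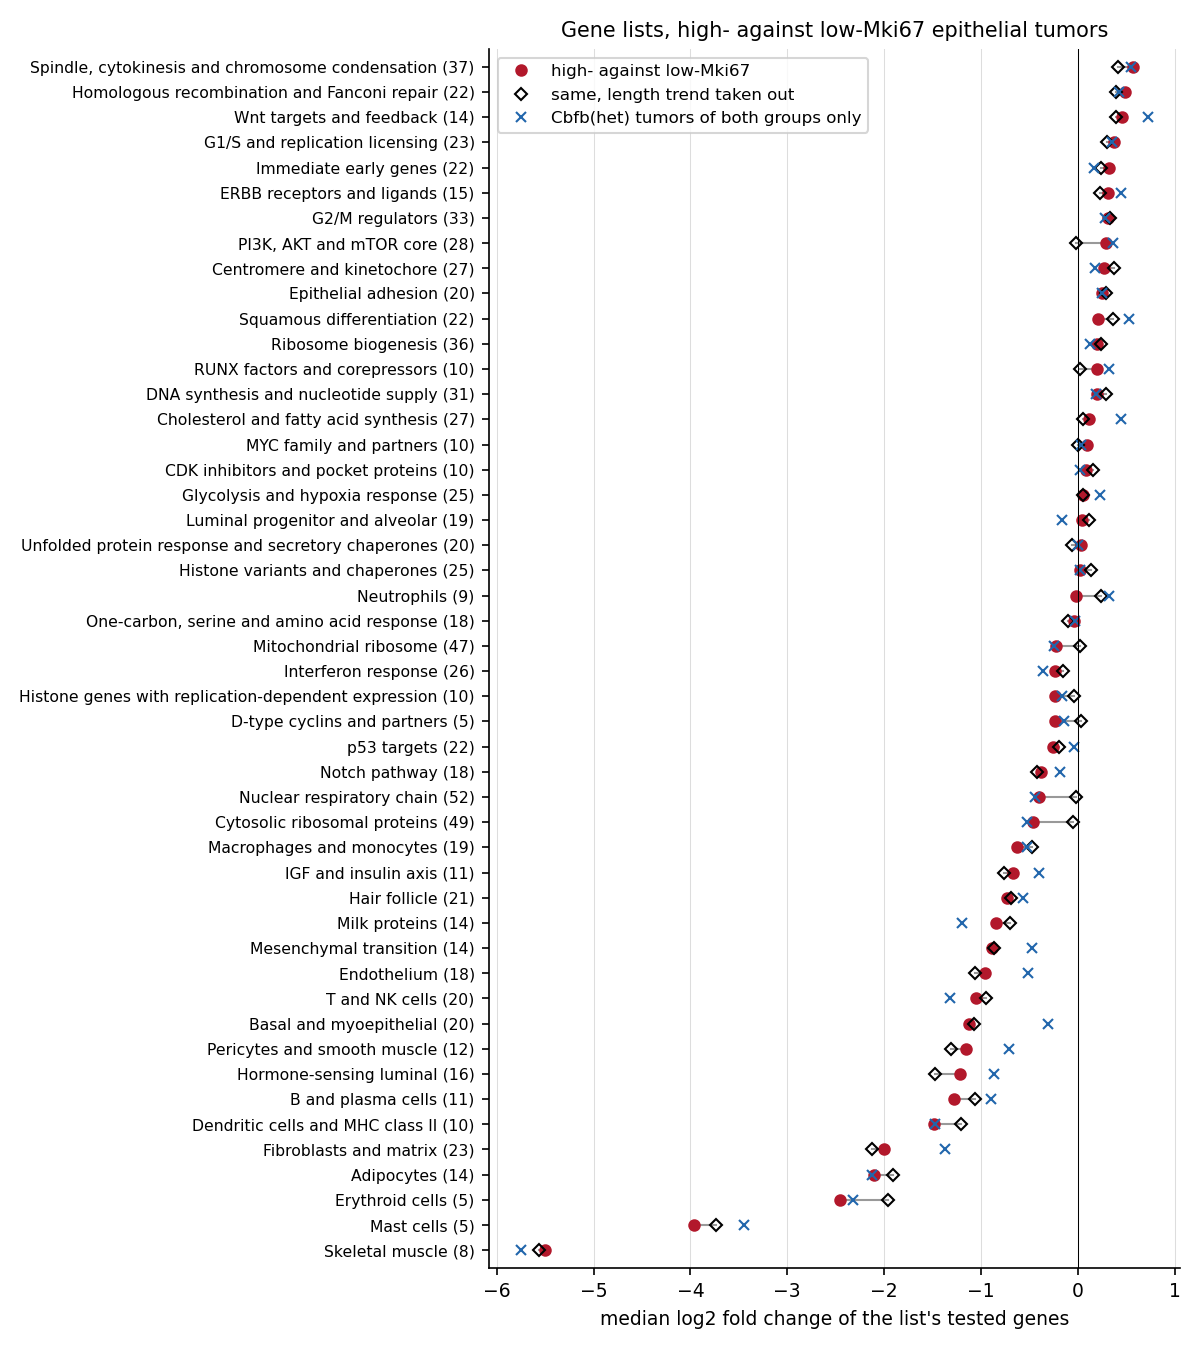
Median log2 fold change of the tested genes of each list with 5 or more tested genes, high- over low-Mki67 tumors (red circles), the same after the length trend was taken out (open diamonds, joined by a line) and within Cbfb(het) tumors only (blue crosses), with the number of tested genes in parentheses. Ribosomal protein, respiratory chain and PI3K lists move to near 0 without the length trend, while the cell cycle lists stay above 0 and the stromal lists stay below.

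Marker RNA of stromal cell types had negative values in nearly every gene, high over low, although 0 genes passed the adjusted threshold. In bulk tumors, fewer cells of a type and less RNA per cell cannot be told apart. All 23 fibroblast and matrix genes had a negative log2 fold change, with a median of -2.002. At an unadjusted p under 0.05, 18 of them were lower (12.7% of all genes). The list's mean was 3.99 log2 CPM in Cbfb(wt) 3, 5.24 in Cbfb(het) 13, 5.43 in Cbfb(het) 6, 5.57 in Cbfb(wt) 1 and 4.59 in Cbfb(het) 7. In the low group it was 5.49 in Cbfb(het) 4, 7.68 in Cbfb(het) 5, 6.66 in Cbfb(het) 9, 5.42 in Cbfb(het) 8 and 7.73 in Cbfb(homo) 1. Of the low tumors, 3 were far above the high group and the other 2 were inside its range. The 3 tumors between the groups were at 7.004, 7.51 and 7.12, so the level did not fall step by step with Mki67. Summed over the list, the levels ran from 1324 to 3469 CPM in high and from 2492 to 17409 CPM in low tumors, and no marker of the list was at 0. Without Cbfb(homo) 1 the median was -1.29 and 12 genes were lower at an unadjusted p under 0.05. Col1a1, the main fibrillar collagen chain, stood at -2.19 ± 0.76 (SE), and Dcn, decorin, at -2.002 ± 0.44 (19.1 to 70.1 against 53.3 to 229 CPM).

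Vessel genes went the same way. Of 18 endothelial genes 17 were negative, with a median of -0.96 (-0.44 without Cbfb(homo) 1). At an unadjusted p under 0.05, 13 of the 18 were lower (12.7% of all genes). In 4 all high tumors lay below all low tumors (2.17% of all genes). Sox17, an endothelial transcription factor, was at 0.394 to 0.760 CPM in high and 1.11 to 3.78 in low tumors, and Esam, an endothelial junction molecule, at 8.94 to 14.9 against 17.0 to 46.1 CPM. Their log2 fold changes were -1.72 ± 0.41 and -1.16 ± 0.29 (SE). The summed endothelial level was 192 to 311 CPM in high and 284 to 831 CPM in low tumors. Pericyte and smooth muscle genes stood at -1.16 over 12 genes (-0.63 without Cbfb(homo) 1), 9 of them lower at an unadjusted p under 0.05 (12.7% of all genes). Their summed level was 272 to 488 CPM in high and 407 to 2170 CPM in low tumors. Myh11, Acta2, Cnn1 and Tagln of this list are also on the basal and myoepithelial list. Tagln, an actin-binding protein of contractile cells, was at 21.3 to 63.4 CPM in high and 65.5 to 487 in low tumors, with no overlap. The endothelial and pericyte medians without the length trend were -1.06 and -1.31, further from 0.

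Lists of blood, fat and muscle also had negative medians, and members at low levels could pass the filter on low counts only through the group where they are high, so these values describe the genes tested. The 5 of 9 listed erythroid genes that passed had a median of -2.46. Hba-a1, an alpha-globin gene, was at 33.6 to 78.9 CPM in high and 102 to 1258 CPM in low tumors, with no overlap. The 14 of 17 adipocyte genes that passed the filter were negative (median -2.10, 8 lower at an unadjusted p under 0.05, against 12.7% of all genes). Summed over all 17 listed genes, the levels were 149 to 402 CPM in high and 242 to 909 CPM in low tumors. For skeletal muscle 8 of 15 genes passed, and Cbfb(het) 5 had the highest summed level, 5707 CPM. The high tumors had 10.7 to 16.4 CPM summed over that list and the lowest low tumor 10.97. The largest log2 fold change named here, -8.81 for the muscle actin gene Acta1, thus rests on levels of 1360 CPM in 1 low tumor and 0.340 in another. Of the mast cell list 5 of 10 genes passed. The sum over all 10 listed genes, among them Kit, which is also on the luminal progenitor list, did not follow the proteases. Cma1, a mast cell chymase, was at 0.0253 to 0.271 CPM in high and 0.0283 to 7.56 CPM in low tumors. The summed list was at 182 to 421 CPM in high and 61.0 to 365 CPM in low tumors. The mast cell receptor gene Ms4a2 had no count in any high tumor.

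Leukocyte lists also had negative medians, and the groups overlapped in each of them. The 10 dendritic cell and MHC class II genes that passed the filter stood at -1.48, with 6 lower at an unadjusted p under 0.05 (12.7% of all genes). Summed over all 14 listed genes, the levels were 500.2 to 1136 CPM in high and 851 to 4672 CPM in low tumors. H2-Ab1, a class II chain, was at 74.1 to 163 CPM in high and 130 to 836 CPM in low tumors. The 19 macrophage genes that passed stood at -0.62 with 16 negative and 8 lower at an unadjusted p under 0.05 (12.7% of all genes). The sum over all 20 listed was 1800 to 3882 CPM in high and 2444 to 6481 CPM in low tumors. The 20 of 24 T and NK cell genes that passed stood at -1.05 and the 11 of 16 B and plasma cell genes at -1.28. Without Cbfb(het) 5 these were -0.18 and -0.59. Outside the groups their median slopes were 1.20 and 0.33. These medians describe the genes tested. Summed over all 24 listed T and NK cell genes, the levels were 10.3 to 29.1 CPM in high and 12.98 to 97.8 CPM in low tumors. Over all 16 listed B and plasma cell genes they were 464 to 987 CPM in high and 316 to 1775 CPM in low tumors. The 9 of 12 neutrophil genes that passed stood at -0.02, at 0.56 without Cbfb(het) 9 and at 0.34 on the TPM scale. The part of stromal and leukocyte RNA in the cell cycle and adhesion differences was not tested.

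**Figure D5:**
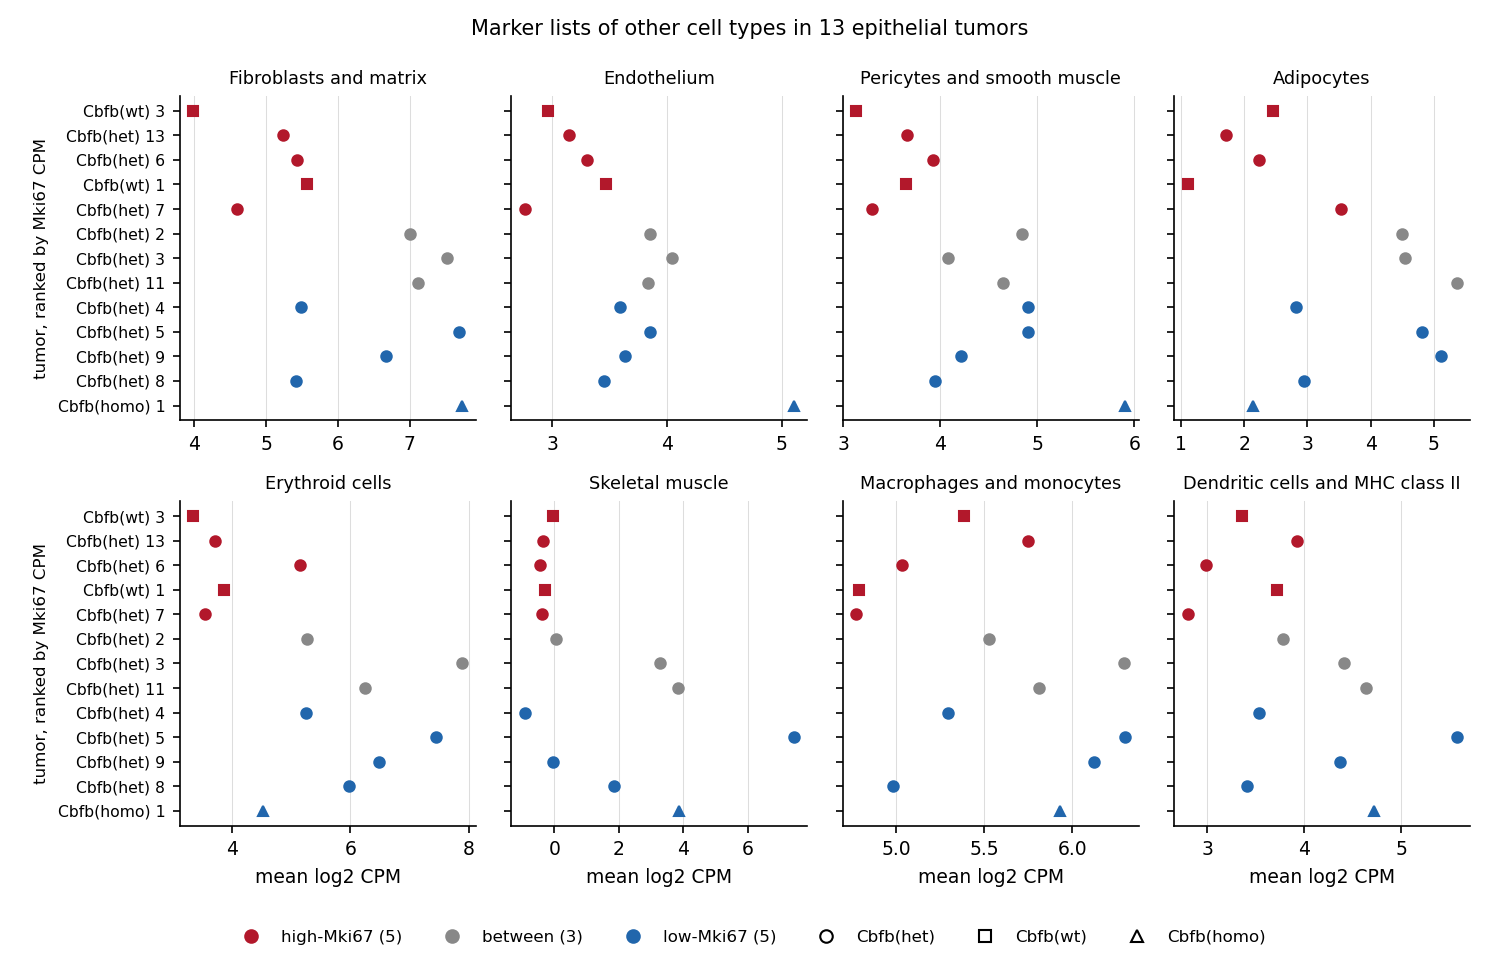
Mean log2 CPM of 8 marker lists (horizontal axes) in the 13 epithelial tumors, 1 point per tumor, ordered by plain Mki67 CPM from top to bottom, with color for the group and shape for the Cbfb label. The high-Mki67 tumors (red) sit at the low end of the fibroblast, endothelial and pericyte lists, the 3 tumors between the groups (grey) sit with the higher low-Mki67 tumors in the fibroblast list, and Cbfb(het) 5 alone reaches 7.43 in the skeletal muscle list.

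Outside the groups the stromal lists had slopes of both signs. In the 7 libraries left out, the median slope on Mki67 was -0.49 for fibroblast genes (1 of 23 negative at an unadjusted p under 0.05), -0.16 for endothelium, 0.07 for pericytes, 0.61 for adipocytes and 0.48 for MHC class II and dendritic cell genes. Erythroid genes had a slope of -2.10 and macrophage genes one of 1.18. Ranked by the G2/M regulators in place of Mki67, the fibroblast median among the 13 epithelial tumors was -1.04 and that of the erythroid list 0.20. Within the Cbfb(het) tumors of both groups alone, 3 against 4, the medians were -1.37 for fibroblasts, -0.52 for endothelium, -0.71 for pericytes and -2.12 for adipocytes.

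The pathway altered in these tumors is given next. Pik3ca, the mutated kinase subunit, was at 128 to 172 CPM in high and 92.3 to 138 CPM in low tumors (log2 fold change 0.30 ± 0.15, SE, adjusted p = 0.271 by edgeR). It stood at 0.07 when the length trend was taken out. The 28 genes of the PI3K, AKT and mTOR core had a median of 0.29 (19 positive, from -0.58 to 0.90) and a middle length of 5648 bases. At an unadjusted p under 0.05, 8 were higher (8.36% of all genes) and 0 lower. In 5 the groups did not overlap (2.21% of all genes). Both shares cover every transcript length and are no baseline for a list of long genes. The slope outside the groups had a median of -0.05. Gsk3b, a kinase inhibited by AKT, was at 130 to 164 against 63.4 to 106 CPM, and Rictor, the defining subunit of mTOR complex 2, at 39.2 to 52.95 against 21.2 to 37.9 CPM. Without the length trend the list's median was -0.02, with 2 higher and 5 lower at an unadjusted p under 0.05. Cbfb, the partner of the RUNX factors, was at 38.8 to 59.1 CPM in high tumors and at 18.5 to 59.2 CPM in low tumors, where the lowest was the Cbfb(homo) tumor (0.25 ± 0.26, adjusted p = 0.617 by edgeR). The 10 RUNX factors and corepressors stood at 0.20, and at 0.02 without the length trend. Erbb3, the receptor that links ERBB2 to PI3K, stood at 0.80 ± 0.24 (112 to 262 against 91.1 to 156 CPM). The 15 ERBB receptors and ligands had a median of 0.32, from -2.72 to 2.09. Of these, 1 was higher and 2 lower at an unadjusted p under 0.05, near the shares of 8.36% and 12.7% of all genes. In the IGF axis the median was -0.67 (0.30 for the slope outside the groups). At an unadjusted p under 0.05, 4 of 11 genes were lower and 1 higher (12.7% and 8.36% of all genes). The lower ones were binding proteins: Igfbp4 was at 55.9 to 76.4 CPM in high and 98.03 to 293 CPM in low tumors (-1.41 ± 0.29), and Igfbp2 at 8.33 to 33.6 against 28.2 to 152 CPM (-2.28 ± 0.53).

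The 5 genes of each direction with the smallest p, taken by rule because none passed the threshold, all had an adjusted p of 0.104 (edgeR). On the higher side Pgap1, which trims the lipid of GPI anchors, was at 36.1 CPM in Cbfb(wt) 3, 36.9 in Cbfb(het) 13, 31.5 in Cbfb(het) 6, 32.8 in Cbfb(wt) 1 and 25.7 in Cbfb(het) 7. In the low tumors Pgap1 was at 14.1 to 18.5 CPM. The groups were far apart, yet Cbfb(het) 11, between them in Mki67, had 35.0 CPM. The log2 fold change was 1.07 ± 0.14 (SE). Utp20 stood at 0.76 ± 0.12, the nuclear export receptor gene Xpo4 at 0.70 ± 0.11, the striatin gene Strn at 0.88 ± 0.14 and Atp2b1, a plasma membrane calcium pump, at 0.93 ± 0.15. Their transcripts run from 4214 (Utp20) to 10526 bases (Pgap1). Without the length trend the 5 stood at 0.48, 0.53, 0.23, 0.39 and 0.55.

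On the lower side Copz2, a coatomer subunit, was at 18.9 CPM in Cbfb(wt) 3, 17.7 in Cbfb(het) 13, 21.6 in Cbfb(het) 6, 17.9 in Cbfb(wt) 1 and 21.8 in Cbfb(het) 7, and at 33.4 to 42.7 CPM in the low tumors. Its log2 fold change was -0.96 ± 0.13 (SE). Wfdc17, a macrophage-expressed secreted protein, stood at -2.03 ± 0.29 and Ly6c1, a GPI-anchored protein of monocytes and endothelium, at -1.91 ± 0.30. Tspan4, a tetraspanin, stood at -0.86 ± 0.13 and Tmem256, a small membrane protein, at -0.88 ± 0.14. All 5 have transcripts of under 1500 bases, from 467 (Tmem256) to 1294 (Tspan4), and without the length trend they stood at -0.67 for Copz2, -1.59 for Wfdc17, -1.64 for Ly6c1, -0.65 for Tspan4 and -0.43 for Tmem256. In the tumors outside the groups the slopes on Mki67 were near 0 or of the other sign for most of these genes: -0.18 for Copz2, -0.16 for Wfdc17, 0.27 for Ly6c1, 0.22 for Tspan4 and 0.11 for Tmem256. On the higher side they were -0.88 for Pgap1, -0.13 for Strn, 0.75 for Utp20, 0.56 for Xpo4 and 0.47 for Atp2b1.

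Other lists are given by their medians. Glycolysis and hypoxia genes stood at 0.05 over 25 genes, cholesterol and fatty acid synthesis at 0.11 over 27, the unfolded protein response at 0.03 over 20 and one-carbon and amino acid response genes at -0.04 over 18, with 0 genes higher in any of these 4 at an unadjusted p under 0.05. Leaving out 1 tumor turned all but the cholesterol list: glycolysis stood at -0.16 without Cbfb(het) 5, the unfolded protein response at -0.01 without Cbfb(wt) 3 and one-carbon genes at 0.04 without Cbfb(het) 4 (0.31 on the TPM scale). MYC and its partners stood at 0.10 over 10 genes (-0.05 without Cbfb(wt) 1). Immediate early genes stood at 0.32 over 22 genes, and at -0.16 without Cbfb(wt) 1. Wnt targets stood at 0.45 over 14 genes, squamous genes at 0.21 over 22 (-0.05 without Cbfb(het) 4), hair follicle genes at -0.73 over 21, and the last of these at 1.68 without Cbfb(het) 9 and 0.82 on the TPM scale. Interferon response genes stood at -0.23 over 26 genes, at 0.03 without Cbfb(het) 4 and at 0.19 on the TPM scale, and Notch pathway genes at -0.37 over 18. Genes of mesenchymal transition stood at -0.89 over 14 (-0.47 without Cbfb(homo) 1). Of the 14, 13 were negative and 7 lower at an unadjusted p under 0.05 (12.7% of all genes). One of them was Vim, vimentin, at 154 to 275 against 246 to 795 CPM. Histone genes whose RNA normally lacks a poly(A) tail stood at -0.23 (0.07 on the TPM scale) over the 10 of 23 that passed the filter, and these libraries, made by poly(A) selection, catch them poorly.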

How the data were processed

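RNA of freshly isolated mammary tumors was extracted with Trizol and made into stranded mRNA libraries, per the labels' protocols. Reads were processed with STAR 2.7.0f and RSEM 1.3.1 on mm10, per the submitters' processing notes. The deposited files give per gene the expected counts that the authors obtained with RSEM and the TPM values, which are relative to transcript length and library. In each tumor 6.20% to 7.19% of the expected counts were not whole, and all were rounded. Each tumor, treated as coming from its own mouse, was 1 replicate.

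Genes were filtered with filterByExpr, scaled with TMM and tested with edgeR 4.0.16 (robust quasi-likelihood test, R 4.3.3) on 10 tumors, with Benjamini-Hochberg adjustment over all genes tested. DESeq2 1.42.0 and limma 3.58.1 (voom, and log2(TPM + 1) with a pseudocount of 1) were alternatives. Values per tumor are TMM-scaled CPM unless called plain, and log2 CPM uses a prior count of 2. The rule used plain CPM of Mki67 and Epcam. For the length trend, a lowess curve (span 0.3) of each tumor's deviations on log2 transcript length was taken out. The procedure was tested on simulated counts. The named genes were Cbfb and Pik3ca, the 5 genes of each direction with the smallest p, and genes of the lists. The tumors, genes and lists were chosen with earlier results of these data known. Mki67 and Epcam chose the groups, so they and the cell cycle genes carry no test between the groups. Promoter sequences are from RefSeq (GRCm38.p6), matched by symbol for 127 of the 151 cell cycle genes.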

Additional observations from a re-analysis of the deposited data

Results flagged for a closer look

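In 11 of 146 groups of 5 tumors, 1 tumor stood apart from the other 4 by more than Dixon's 95% critical value of 0.71. Chance alone marks about 1 group in 20, and no explanation was tested. Cbfb(homo) 1 stood apart from the other low-Mki67 tumors in 4 values: Cbfb at 4.21 log2 CPM, the mean of the DNA synthesis genes at 3.92, and that of the histone variants at 6.0 were low, and the endothelial mean at 5.10 was high. Cbfb(het) 8 was low in the same group for Ly6c1, at 3.58 log2 CPM, and for the motile cilia genes, at -1.39. Among the high-Mki67 tumors Cbfb(wt) 1 was high for Xpo4, at 5.44 log2 CPM, and low for the Wnt targets, at 2.92. Cbfb(het) 6 was high for the erythroid genes, at a mean of 5.15 log2 CPM. Cbfb(het) 13 was high for Wfdc17, at 3.61 log2 CPM, and Cbfb(wt) 3 for the share of mitochondrially encoded mRNA, at 2.136%.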

How the results depend on the processing

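The main test called 0 genes higher and 0 lower. DESeq2 called 555 and 803, limma on log2(TPM + 1) 300 and 2, Epcam as a covariate 4 and 5, the ranking by G2/M regulators 233 and 215, and Mki67 as a continuous term over 13 tumors 194 and 292. At an unadjusted p under 0.05, in place of 1393 higher and 2117 lower, limma on log2(TPM + 1) gave 3853 and 321, and the fit outside the groups 711 and 1311. Taking out the length trend gave 803 higher and 1739 lower genes, and the Cbfb(het) tumors alone 1612 higher and 1068 lower ones. Leaving out 1 tumor gave 0 to 20 called higher, 0 to 108 called lower, and at an unadjusted p 943 (without Cbfb(het) 5) to 2148 higher (without Cbfb(homo) 1, and 2124 without Cbfb(het) 4) and 1444 to 2224 lower. Of 79 genes followed, 45 had the other sign outside the groups, 25 of 78 when ranked by G2/M regulators and 30 of 79 when ranked by Mki67 without the length trend. Among them were genes named by rule. Outside the groups these included Cbfb (-1.25), Pik3ca (-0.1773), Pgap1 (-0.8758), Strn (-0.1294), Tspan4 (0.2155), Tmem256 (0.1139) and Ly6c1 (0.2715). Ranked by G2/M regulators they included Pik3ca (-0.1235), Pgap1 (-0.1434), Wfdc17 (0.3939), Tmem256 (0.1262) and Ly6c1 (0.1808). Ranked by Mki67 without the length trend, chosen after seeing the data, they included Pik3ca (-0.1762), Pgap1 (-0.08845), Copz2 (0.01383), Wfdc17 (0.3477), Tspan4 (0.001956), Tmem256 (0.1738) and Ly6c1 (0.1125). The cause was not tested. Averaging the libraries of Cbfb(het) 10 and 14 changed nothing between the groups, since both lie outside them. No paired analysis was possible because the labels give no number that ties tumors across groups.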
